A study of Mus musculus with 6 samples.

Results

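Molar cementoblasts were represented by the 3 of 6 samples whose label names OC-GFP+ cementoblasts. They were sorted GFP-positive cells of the periodontium, taken from extracted molars of C57Bl6/J mice of mixed sex with the genotype OC-GFP, in which a fluorescent protein reports transcription of osteocalcin. Replicate 1 pooled 7 mice aged 6-7 weeks, replicate 2 pooled 10 mice aged 5-6 weeks and replicate 3 pooled 6 mice aged 6-7 weeks, so each value is an average over animals and over all cells that passed the sort. Dissected tissue was digested with 0.25% trypsin and 0.2% collagenase A at 37 °C for 1 h, and amplified, biotinylated RNA was read on Illumina bead arrays. The other 3 samples were calvarial osteoblasts of the same genotype and strain. They entered the normalization only, and no comparison between the groups was made.

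Cementoblasts line the tooth root and secrete cementum, the thin mineralised tissue that anchors the collagen fibres of the periodontal ligament to the tooth. Like osteoblasts, they secrete type I collagen and noncollagenous proteins such as bone sialoprotein and osteocalcin, and mineral then forms within that matrix. Their neighbours on an extracted molar include ligament fibroblasts, epithelial cells of the gum and of the remnants of the root sheath, vessels and blood-borne cells.

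Genes of mineralised matrix were among the highest signals of the sorted cells. All 7 markers chosen for them (Bglap2, Col1a1, Ibsp, Wif1, Barx1, Osr2 and F2r) were detected on all 3 arrays. The markers were chosen with earlier results of these data known, so their detection is not independent evidence of what the cells are. Signals are given on the log2 scale after background correction and quantile normalization, and the lowest signal called detected (detection p under 0.05 against negative control beads) was 4.80, 4.75 and 4.75 on replicates 1, 2 and 3. Of 16593 genes, 5595 (33.7%) were detected on all 3 arrays, 1534 on 2 and 2271 on 1, and 7177 (43.3%) had no probe detected on any array. Those last genes are called below detection here. The brightest probe stood for a gene with several. A signal or a rank is that of a bead, which depends on the probe as well as on the transcript, so the ranks are not an order of transcript abundance.

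Replicate 3 stood apart from the other arrays. Replicates 1 and 2 had a Pearson correlation of 0.957 across all genes, against 0.883 for replicates 1 and 3 and 0.899 for replicates 2 and 3 (descriptions across 16593 genes, which are not independent). Between replicates 1 and 2, 5.88% of genes were more than 1 apart on the log2 scale, against 18.1% between replicates 1 and 3 and 17.1% between replicates 2 and 3. Markers of epithelium, macrophages and vessels had strong signals on replicates 1 and 2 and lay at or near background on replicate 3, while several matrix genes were highest on replicate 3. In RNA from pooled cells, fewer cells of a type and less RNA per cell cannot be told apart. The non-normalized arrays differed less in the middle of the signal range than at its top: the median bead signal was 82.7, 78.5 and 81.7 and the highest was 8612, 7843 and 17325 on replicates 1, 2 and 3. The arrays detected 9791, 10059 and 10040 of 25697 probes. Counts of epithelial, marrow, macrophage, endothelial and cell cycle genes are given with and without replicate 3 below. Every SD is over all 3 arrays.

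**Figure D1:**
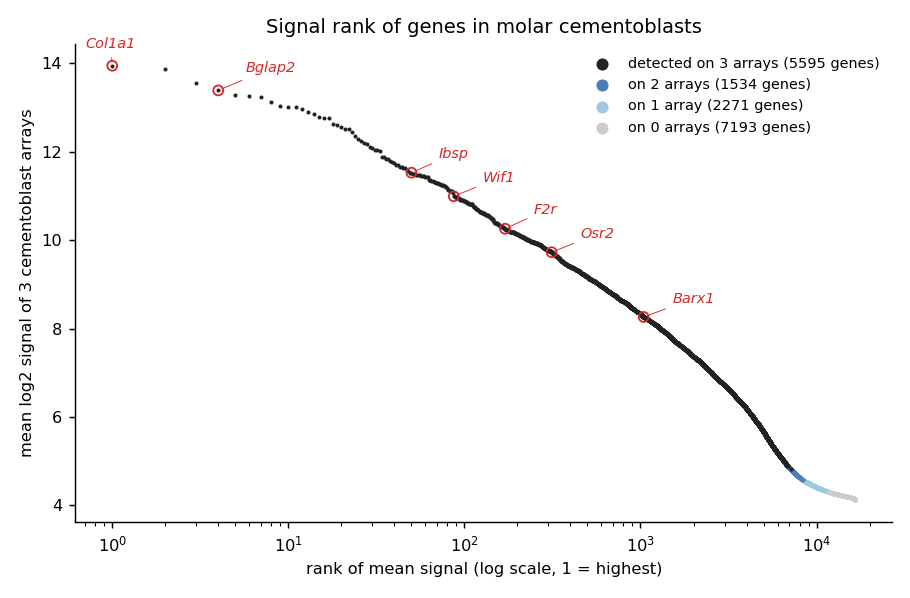
Mean log2 signal over the 3 cementoblast arrays (vertical axis) against the rank of that mean on a log scale (horizontal axis), 1 point per gene for 16593 genes, shaded by the number of arrays that detected the gene. The 7 marker genes are circled: Col1a1 ranked 1 and Bglap2 ranked 4, and Barx1, the lowest of them, ranked 1042.

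The highest signals of all belonged to matrix genes and to genes of the translation machinery. Col1a1, the alpha 1 chain of type I collagen, had the highest mean, with a log2 signal of 13.98, 13.98 and 13.90 on replicates 1, 2 and 3, a mean ± SD of 13.95 ± 0.05 (n = 3). Quantile normalization gives the top ranks of each array the same values, so this small spread is not a measure of evenness. The bead signal of Col1a1 before normalization was 5489, 6226 and 14103, and scaled to the 75th percentile of each array it was 13.05, 13.28 and 14.17 on the log2 scale, highest on replicate 3. Sparc, or osteonectin, a collagen-binding glycoprotein of bone, ranked 5 at 12.65, 13.23 and 13.98. Serpinf1, which encodes the secreted pigment epithelium-derived factor, ranked 9 at 12.50, 13.06 and 13.53. Bgn and Dcn, the small leucine-rich proteoglycans biglycan and decorin, ranked 13 and 17. The signals of Bgn were 12.53, 12.73 and 13.45, and those of Dcn were 12.73, 12.66 and 12.93. All 4 were highest on replicate 3, and Dcn differed least.

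Of the 20 highest genes, 7 encode ribosomal proteins (Rpl23, Rpl41, Rplp1, Rps20, Rps12, Rps24 and Rpl37), and 31 of the highest 100 had such a symbol. The rest of the 20 held Fth1, the iron-storage ferritin heavy chain, Actb, the cytoskeletal actin, a ubiquitin pseudogene (Ubb-ps), the early-response factors Egr1 and Fos, and S100a8, a calcium-binding protein of neutrophils. Ribosomal and ubiquitin genes have many near-identical copies, so those signals may be shared among them. Only 10 genes were among the 20 highest on each array taken alone. Ibsp, Itm2b, Mmp2 and Nupr1 entered the list of replicate 3, Hba-a1, Igf2 and Emp1 that of replicate 2, and Lyz1, Tmsb4x, S100a9 and Gm6548 that of replicate 1. Mmp13, a collagenase of bone-forming cells, was chosen after its values were seen. It ranked 25, with signals of 12.12, 12.24 and 12.51.

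Osteocalcin, the product whose gene drives the reporter used in the sort, is not independent evidence of what the cells are. Bglap2 had log2 signals of 13.87, 12.10 and 14.21 (mean ± SD 13.39 ± 1.13, n = 3) and Bglap had 13.21, 11.76 and 14.07 (13.01 ± 1.16, n = 3). Both were lowest on replicate 2 and highest on replicate 3, although the osteocalcin genes are near-identical copies whose probes may bind each other's transcripts. A second Bglap probe gave 12.71, 11.20 and 13.87, in the same order. The third Bglap probe read 5.89, 4.51 and 7.10, again in that order and far dimmer.

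Ibsp, which encodes bone sialoprotein, a mineral-nucleating glycoprotein of cementum and bone, ranked 50. Its signals were 11.20, 10.15 and 13.23 (mean ± SD 11.53 ± 1.57, n = 3), and its other probe read 10.91, 9.61 and 12.71. The arrays thus took the same order for Ibsp as for the osteocalcin genes, with replicate 3 highest, replicate 1 between and replicate 2 lowest. The osteoblast genes Col1a2, Sp7 and Ifitm5 also took this order, and Alpl and Tmem119 did not. Whether a shared order over 3 arrays reflects shared control was not tested. The 250 bases before the transcription start of Bglap and Ibsp are shown, from RefSeq (GRCm38.p6), 5′ to 3′ on the strand of the gene. The Bglap stretch lies at chr3:88384467-88384716 on the minus strand and the Ibsp stretch at chr5:104299037-104299286 on the plus strand. Capitals mark ACCACA, a core bound by Runx factors, CCAAT and TATAAA, or their reverse complements.
Bglap: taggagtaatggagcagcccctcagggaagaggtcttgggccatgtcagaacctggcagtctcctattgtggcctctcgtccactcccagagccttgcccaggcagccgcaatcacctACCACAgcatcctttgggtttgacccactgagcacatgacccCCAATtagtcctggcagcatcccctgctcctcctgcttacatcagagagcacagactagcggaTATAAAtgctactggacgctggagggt
Ibsp: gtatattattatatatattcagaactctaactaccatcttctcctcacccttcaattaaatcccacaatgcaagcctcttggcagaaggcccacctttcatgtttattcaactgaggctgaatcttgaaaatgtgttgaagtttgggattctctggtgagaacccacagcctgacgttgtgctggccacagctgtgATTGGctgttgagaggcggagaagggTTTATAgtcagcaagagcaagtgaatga
In Bglap, ACCACA began 132 bases, CCAAT 90 bases and TATAAA 27 bases before the start, all on the strand of the gene. In Ibsp, CCAAT and TATAAA lay on the opposite strand. On the strand of the gene, their reverse complements ATTGG and TTTATA began 54 and 28 bases before the start. In that window ACCACA did not occur on either strand. Among 32851 mouse promoters of the same 250 bases, searched on both strands, ACCACA occurred in 14.0%, TATAAA in 12.4% and CCAAT in 33.8%. These matches are descriptions of letters and do not show binding.

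The broader osteoblast signature was present on every array. Of 13 core osteoblast genes measured, 11 were detected on all 3 arrays, where 33.7% of all genes were. The 11 include Bglap and Bglap2, the osteocalcin genes, whose detection is not independent of the sort. Col1a2, the second chain of type I collagen, had signals of 10.87, 10.61 and 12.46. Alpl, the tissue-nonspecific alkaline phosphatase that frees phosphate for mineral, had 9.68, 9.85 and 10.29. Sp7, or osterix, the transcription factor required for osteoblast formation, had 8.90, 8.55 and 10.26. All of these were highest on replicate 3, and so were 10 of the 12 core genes detected on any array, beside 44.4% of all such genes. The widest gap in the list was that of Ifitm5, a membrane protein of mineralising osteoblasts, at 7.54, 7.40 and 10.57. Tmem119, a membrane protein of osteoblasts, had 8.13, 8.49 and 10.82. Pth1r, the parathyroid hormone receptor, was weaker, at 5.97, 6.46 and 7.54. Atf4, a stress-responsive factor that acts in osteoblasts, ran the other way and was at least 2 lower on replicate 3, at 6.74, than on replicate 2, at 9.41, or on replicate 1. The secreted protein gene Cthrc1 was below detection. The mean over the list was 8.94, 8.80 and 9.83 on replicates 1, 2 and 3, and replicate 3 was highest under every scaling tried. Runx2 and Spp1 were not analysed here.

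Mineral-binding proteins divided between high signals and background. Of 9 measured, 5 were detected on all 3 arrays (55.6%, beside 33.7% of all genes), and Ahsg and Dspp were below detection. Omd, or osteomodulin, a proteoglycan of mineralised tissue, was even, at 9.76, 10.33 and 10.41. Fbln1, the matrix glycoprotein fibulin-1, had 10.84, 11.37 and 8.46. Mgp, matrix Gla protein, an inhibitor of mineralisation, had 10.84, 10.30 and 6.81. Mgp and Fbln1 were thus lowest on the array where Ibsp, Sparc and the osteocalcin genes were highest. The order of the arrays by the mean of this list changed with the scaling.

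Several genes that control phosphate and pyrophosphate, and so the growth of mineral, were detected. Of 13 measured, 9 were detected on all 3 arrays (69.2%, beside 33.7% of all genes). Ank, a membrane protein that raises extracellular pyrophosphate and whose loss thickens cementum in mice, had signals of 7.72, 8.22 and 11.30. Smpd3, a neutral sphingomyelinase needed for mineralisation in mice, had 8.13, 8.45 and 10.94. Both were level on replicates 1 and 2 and more than 2 higher on replicate 3. Fam20a, a pseudokinase that assists the Fam20c kinase of secreted proteins, had 6.64, 6.36 and 8.03, and Fam20c had 4.61, 5.20 and 6.90, not detected on replicate 1. Slc20a2, a sodium-dependent phosphate transporter, was lowest on replicate 3, at 8.72, 9.30 and 7.24. The calcium-binding annexins Anxa2 and Anxa5 were even, with Anxa2 at 11.00, 11.24 and 10.72 and Anxa5 at 10.62, 10.76 and 11.17. Phospho1, a phosphatase of matrix vesicles, stayed at the edge of detection, at 4.37, 5.04 and 4.77, and the phosphate transporter gene Slc20a1 was below detection.

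Genes of matrix-embedded osteocytes and of dentine-forming odontoblasts were detected on all 3 arrays about as often as genes in general. Of 11 osteocyte genes, Pdpn, Cd44 and Irx5 were detected on all 3 arrays (27.3%, beside 33.7% of all genes). When replicate 2 was left out, the omission that gave the highest count, 5 were detected on the remaining pair, beside 35.6% of all genes. Sost, a secreted Wnt inhibitor, and Fgf23, a phosphate-lowering hormone, both products of osteocytes, were below detection, and so were Dkk1 and Tnfsf11. Dmp1, an acidic mineral-binding protein of osteocytes and dentine, had 4.38, 5.57 and 7.11 and was not detected on replicate 1. Phex, an endopeptidase that controls phosphate balance, had 6.26, 4.38 and 8.14 and was not detected on replicate 2. Mepe, a matrix phosphoglycoprotein, was detected on replicate 3 alone, at 4.97. Dspp, the main noncollagenous gene of dentine, was below detection, with signals from 4.23 to 4.34. Of 7 odontoblast and dentine genes, 3 were detected on all 3 arrays, namely Col1a1, Klf4 and Dlx3 (42.9%). When replicate 1 was left out, again the omission with the highest count, 5 were detected on the remaining pair, beside 36.6% of all genes. The mean of the osteocyte list was 5.32, 5.41 and 6.28, highest on replicate 3 under every scaling tried.

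The machinery that hydroxylates, folds, cleaves and cross-links collagen was broadly detected. On all 3 arrays, 15 of 20 genes were detected (75%, beside 33.7% of all genes). P4hb, a subunit of prolyl hydroxylase, had 10.72, 10.87 and 11.25. Lox, the lysyl oxidase that starts cross-links, had 9.77, 9.72 and 11.93. Plod2, a lysyl hydroxylase of collagen telopeptides, had 6.85, 7.46 and 9.26, and Serpinh1, the collagen chaperone HSP47, had 8.15, 8.75 and 9.91. Pcolce, an enhancer of procollagen C-proteinase, and Bmp1, that proteinase, were also highest on replicate 3, at 9.53, 9.85 and 10.73 for Pcolce and 8.55, 8.94 and 10.08 for Bmp1. Loxl1, a relative of Lox that acts on elastin, was lowest there, at 9.42, 9.75 and 8.96. P4ha3 and Loxl4 were below detection. General secretory genes were detected on all 3 arrays in 20 of 27 cases (74.1%). The translocon subunit gene Ssr3 led them, at 10.63, 10.50 and 11.33. Over the 64 genes of mineralisation and collagen processing together, 43 were detected on all 3 arrays (67.2%). Of the 54 detected on any array, 41 (75.9%) had their highest signal on replicate 3, beside 44.4% of all such genes.

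**Figure D2:**
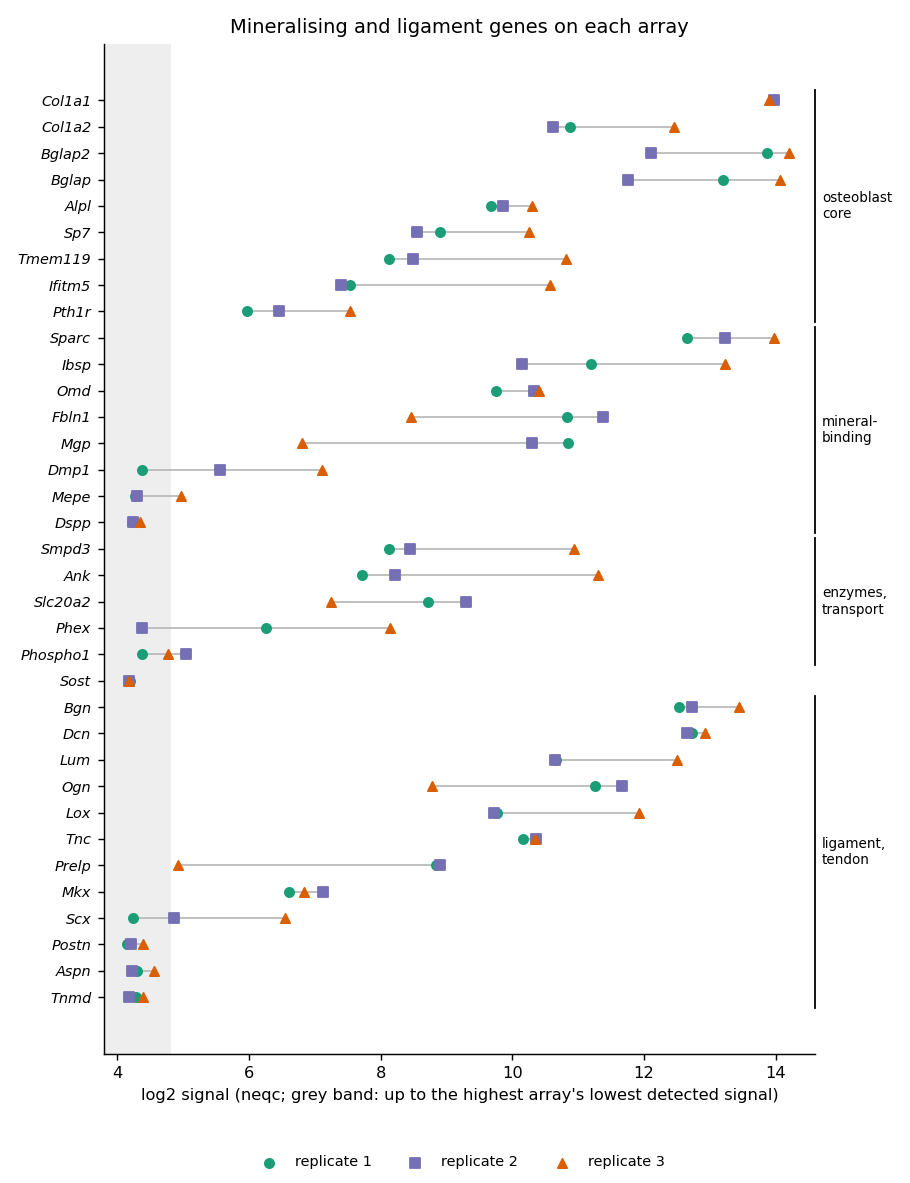
Log2 signal of mineralising and ligament genes (rows) on cementoblast replicates 1, 2 and 3 (symbols), with a grey band up to 4.80, the highest of the arrays' lowest detected signals. Col1a1 sits at the top ranks, whose values quantile normalization fixes, Ibsp, Ank and Lox are highest on replicate 3, Mgp, Ogn and Prelp are lowest there, and Dspp, Sost, Postn, Aspn and Tnmd lie in the band on every array.

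Genes of ligament and tendon were present as a mixture. Of 25 measured, 17 were detected on all 3 arrays (68%, beside 33.7% of all genes), and Postn, Aspn, Tnmd and Kera were below detection. Tnmd and Kera encode tenomodulin, a tendon membrane protein, and keratocan, a proteoglycan. Postn and Aspn, which encode periostin and asporin, are usual products of the periodontal ligament, and each had a single probe here, with signals from 4.16 to 4.39 for Postn and from 4.23 to 4.55 for Aspn. A probe at background does not show that a transcript is absent: the ribosomal protein genes Rpsa, Rplp2 and Rpl6 and the glycolytic gene Pgk1, which all cells use, were also below detection.

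Other ligament matrix genes had high signals. Lum, the proteoglycan lumican, had 10.66, 10.64 and 12.50. Col6a1, a chain of the microfibrillar type VI collagen, was even, at 11.03, 11.23 and 11.15, and Tnc, the adhesion-modulating glycoprotein tenascin-C, was too, at 10.16, 10.36 and 10.35. Col3a1, the fibril collagen of stretchable tissue, had 10.26, 10.00 and 9.54. Ogn, or osteoglycin, ran against Lum, at 11.26, 11.66 and 8.77, and both of its other probes were lowest on replicate 3 as well. Prelp, a proteoglycan that binds basement membrane, had 8.84, 8.90 and 4.92. Mkx, the tendon transcription factor Mohawk, was even, at 6.61, 7.13 and 6.84, while Scx, or scleraxis, had 4.24, 4.86 and 6.55 and was not detected on replicate 1. The list as a whole barely differed between arrays, with means of 7.69, 7.78 and 7.86, and the order of the arrays by that mean changed with the scaling.

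Transcription factors that pattern the teeth and jaws were detected on all 3 arrays in 13 of 23 cases (56.5%, beside 33.7% of all genes). Osr2, an odd-skipped factor that limits tooth formation to a single row in mice, had signals of 9.46, 10.31 and 9.42 (mean ± SD 9.73 ± 0.51, n = 3) and ranked 313. Barx1, a homeobox factor of molar mesenchyme, had 7.80, 8.39 and 8.60 (8.26 ± 0.41, n = 3), and its other probe read 7.55, 7.63 and 7.07, so that its order over the arrays depended on the probe. Msx1, required for tooth development, had 8.36, 8.94 and 8.91. Osr2, Barx1 and Msx1 each lay within 1 over the 3 arrays, as most detected genes did. Foxq1, a forkhead factor, had 8.16, 8.45 and 9.80, and Dlx3, a homeobox factor of teeth and bone, had 7.07, 7.70 and 8.31. Tbx2, a T-box repressor, had the widest range of the list, at 5.94, 6.00 and 7.92. Pax9, Pitx1, Lhx6, Dlx5, Dlx4, Osr1, Hand1, Hand2 and Runx3 were below detection, and Msx2 was detected on replicate 2 alone. Of 15 factors of skull patterning, 5 were detected on all 3 arrays, a share near that of all genes. These were Twist1, Prrx1, Foxc1, Six2 and Tcf12, and Twist1, a basic helix-loop-helix factor of cranial mesenchyme, was the brightest, at 8.47, 8.79 and 9.90. Alx1, Alx4, En1, Zic2, Zic4, Lmx1b and Foxc2 were below detection.

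Among Wnt antagonists, 5 of 16 were detected on all 3 arrays, a share near that of all genes, and 7 were below detection. Wif1, a secreted inhibitor that binds Wnt ligands, had signals of 11.33, 11.54 and 10.11 (mean ± SD 10.99 ± 0.77, n = 3) and ranked 87. It was lower on replicate 3, opposite to the osteocalcin genes and Ibsp. Dkk3, a divergent member of the Dickkopf family, had 9.31, 9.64 and 10.23, and Sfrp2, a secreted Frizzled-related protein, had 9.51, 9.32 and 9.26. Apcdd1, a membrane Wnt inhibitor, and Sfrp1 moved in opposite directions over the arrays, with 6.68, 6.81 and 8.80 for Apcdd1 and 7.36, 8.10 and 5.68 for Sfrp1. Dkk1, Dkk2, Dkk4, Sost, Sfrp5, Draxin and Cxxc4 were below detection.

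Of 25 genes of BMP and TGF-beta signalling, 17 were detected on all 3 arrays (68%, beside 33.7% of all genes). Of the receptor genes, Tgfbr2 and Tgfbr1 were even, with Tgfbr2 at 9.81, 9.67 and 9.83 and Tgfbr1 at 9.10, 9.31 and 9.24. Bmpr1a, a type I BMP receptor, was higher on replicate 3, at 6.63, 6.45 and 7.64. Among the ligands, Bmp3, an antagonistic BMP of bone, had 6.82, 6.91 and 10.16, and Bmp4, a BMP of tooth and bone development, had 6.79, 7.59 and 8.66. Tgfb1 had 7.10, 7.09 and 8.34, while Tgfb3 was lowest on replicate 3, at 8.06, 8.32 and 7.35. Bmp2, Bmp5, Bmp6 and Bmpr1b were below detection.

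F2r, which encodes the thrombin receptor PAR1, had signals of 10.23, 10.49 and 10.06 (mean ± SD 10.26 ± 0.21, n = 3), and ranked 170. Its 3 signals lay within 1 of each other. Its relatives measured here were dim: F2rl2 was detected on 1 array, and F2rl3 was below detection. A further relative, F2rl1, was not analysed here. Thrombomodulin (Thbd) and the protein C receptor (Procr) had 6.50, 6.19 and 4.27 and 4.10, 4.18 and 4.32, so Thbd was detected on replicates 1 and 2 and Procr on none. Among genes that steer osteoclasts, Tnfrsf11b, the decoy receptor osteoprotegerin, had 7.97, 8.38 and 9.97, and the ligand it binds, Tnfsf11 (RANKL), was below detection. Wnt5a, a noncanonical Wnt that promotes osteoclast formation, had 8.43, 8.38 and 11.41, and its second probe was likewise highest on replicate 3. Cxcl12, a chemokine that holds blood-forming cells in marrow, had 9.76, 9.63 and 7.63, and Csf1, the macrophage growth factor, had 6.02, 5.44 and 5.15.

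Epithelial genes were present on 2 pools and at background on the third. Of 31 keratin, oral epithelium and enamel genes, 2 were detected on all 3 arrays, far under the 33.7% of all genes. Without replicate 3, 19 of the 31 were detected on both remaining arrays, beside 38.2% of all genes. Krt14, a keratin of basal epithelium, had signals of 11.57 and 11.18 on replicates 1 and 2 and 4.47 on replicate 3. Its partner Krt5 had 9.74, 9.32 and 4.18, and Krt13, a keratin of the oral lining, had 11.00, 10.69 and 4.31. Col17a1, a collagen of the hemidesmosome, had 8.08, 8.86 and 4.67, and the epithelial cadherin gene Cdh1 had 5.58, 6.04 and 4.29. The only keratin detected on every array was Krt10, at 6.41, 6.43 and 7.03. Counting the list of 26 keratin and oral epithelium genes by array, 21, 19 and 2 were detected, beside 44.0%, 45.1% and 44.3% of all genes. The mean of that list was 6.73, 6.58 and 4.42. Krt1, Krt7, Krt19 and Perp were below detection. Of 5 enamel matrix genes, Ambn, which encodes ameloblastin, was detected on all 3 arrays, at 8.29, 9.81 and 6.82, while Amelx, Enam, Mmp20 and Klk4 were below detection. The part of epithelial RNA in the other signals of replicates 1 and 2 was not tested.

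Marrow-type genes were detected in 31 of 75 cases on all 3 arrays (41.3%, beside 33.7% of all genes). Without replicate 3 they were detected in 43 cases, beside 38.2% of all genes. Neutrophil granule genes led them, with 14 of 17 detected on all 3 arrays (82.4%). S100a8 and S100a9, which form the protein calprotectin, had log2 signals of 14.21, 12.81 and 11.35 for S100a8 and 12.95, 11.26 and 9.65 for S100a9. Mpo, or myeloperoxidase, had 11.50, 9.89 and 6.79, and Camp, the antimicrobial cathelicidin, had 12.01, 10.36 and 8.20. The 16 genes detected on any array all took 1 order, highest on replicate 1 (beside 28.0% of all such genes) and higher on replicate 2 than on replicate 3 (beside 45.7%). The mean of the list was 10.37, 8.89 and 6.99 on replicates 1, 2 and 3, in that order under every scaling tried.

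Macrophage and antigen-presentation genes differed more between arrays. Of 16 measured, 6 were detected on all 3 arrays (37.5%, beside 33.7% of all genes). Without replicate 3, 15 were detected on both other arrays, beside 38.2% of all genes. Only Ptprc was below detection. Cd74, the invariant chain of class II molecules, had 11.49, 10.09 and 5.12, and H2-Ab1, a class II chain, had 11.54, 10.06 and 4.92. C1qb, a complement chain of tissue macrophages, had 9.40, 8.37 and 4.10, and Mrc1, the mannose receptor, had 8.89 and 8.44 on replicates 1 and 2 and was not detected on replicate 3. The 15 genes detected on any array were all highest on replicate 1, beside 28.0% of all such genes, and the mean of the list was 8.90, 7.70 and 4.74. On replicate 3, 14 of 17 neutrophil genes were detected, against 6 of 16 macrophage and antigen-presentation genes, beside 44.3% of all genes.

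Osteoclast genes were detected on all 3 arrays about as often as genes in general. Ctsk, which encodes the collagen-cleaving protease cathepsin K, had 9.61, 9.75 and 10.52, whereas Acp5, the tartrate-resistant phosphatase that defines osteoclasts, was below detection, as were Calcr, Oscar, Dcstamp, Ocstamp, Itgb3 and Atp6v0d2. Of 13 osteoclast genes, 4 were detected on all 3 arrays (30.8%, beside 33.7% of all genes). Lymphoid genes were mostly not detected, with 10% of B lineage and 10% of T and NK genes detected on all 3 arrays. Of 10 B lineage genes, Vpreb3 was detected on all 3 arrays at 5.40, 5.46 and 5.13, with Cd79a, Ms4a1 and Pax5 below detection, and of 10 T and NK genes, Nkg7 was detected on all 3, at 8.25, 6.75 and 4.79, with Cd3d, Cd3e, Cd3g, Cd4 and Cd8a below detection. Red-cell genes were detected on all 3 arrays in 5 of 9 cases (55.6%). Hba-a1, an alpha globin gene, had 11.10, 12.71 and 10.61 and Alas2, the enzyme that starts haem synthesis in red cells, had 5.19, 7.27 and 5.30, so both were highest on replicate 2 and not on replicate 1.

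**Figure D3:**
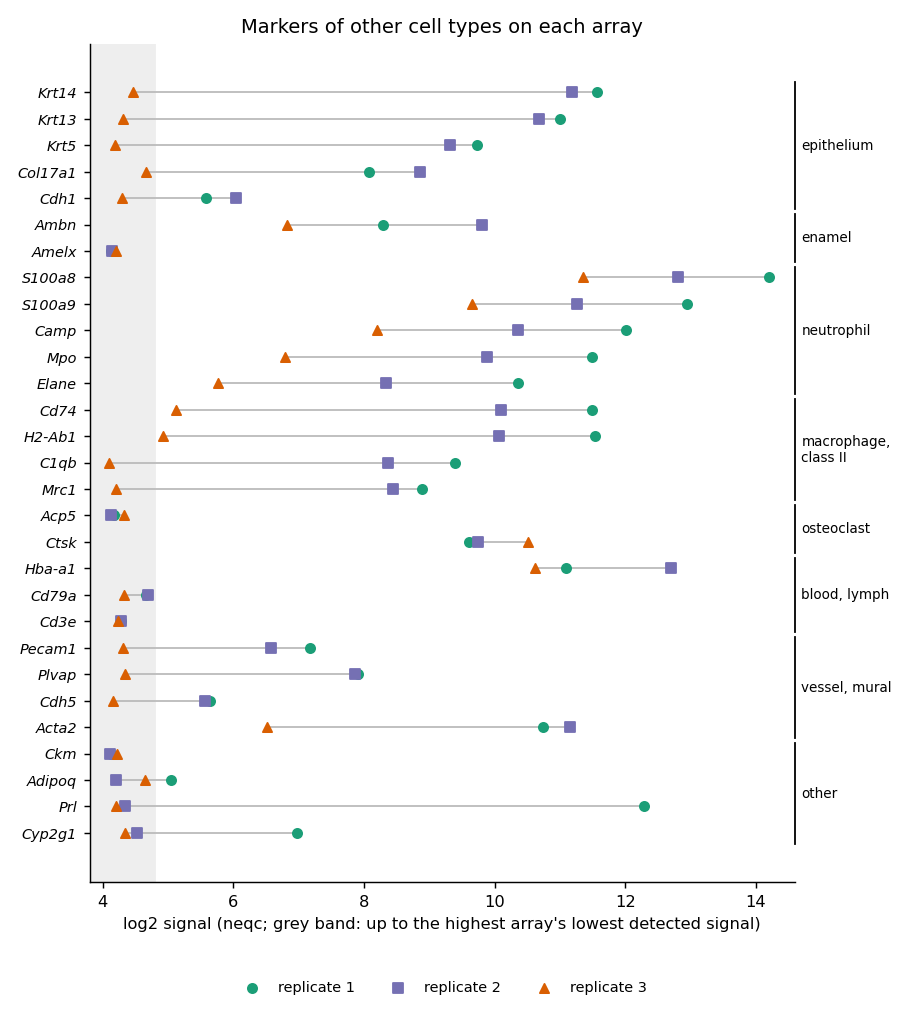
Log2 signal of markers of other cell types (rows) on cementoblast replicates 1, 2 and 3 (symbols), with a grey band up to 4.80, the highest of the arrays' lowest detected signals. Keratin, class II and vessel genes are high on replicates 1 and 2 and in or near the band on replicate 3, neutrophil genes are graded over the 3 arrays, Acp5, Cd3e and Ckm lie in the band on all 3, and Prl is high on replicate 1 alone.

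Vessel genes followed the epithelial ones. Of 14 endothelial genes, 2 were detected on all 3 arrays (beside 33.7% of all genes) and 12 without replicate 3 (beside 38.2% of all genes). Pecam1, an adhesion molecule of endothelium, had 7.18, 6.58 and 4.31, and Plvap, a protein of endothelial diaphragms, had 7.90, 7.87 and 4.34. Eng, the co-receptor endoglin, was even, at 6.87, 7.25 and 6.81. Acta2, smooth-muscle actin, had 10.74, 11.16 and 6.51, and each of its other 3 probes was lowest on replicate 3. Of the pericyte genes, Pdgfrb ran the other way, at 7.18, 7.48 and 7.94. None of 11 skeletal muscle genes was detected on all 3 arrays, and the creatine kinase gene Ckm was below detection. The fat-cell genes Fabp4, Plin1 and Cidec were below detection, and Lpl, a lipase that other cells also make, was the only one of 7 adipocyte genes detected on all 3 arrays, at 9.66, 8.75 and 7.19. Of 16 cartilage genes, 4 were detected on all 3 arrays, a share near the 33.7% of all genes. Col2a1, the main cartilage collagen, had the widest range, at 9.72, 6.66 and 8.13, while Col10a1, Matn1 and Matn3 were below detection.

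**Figure D4:**
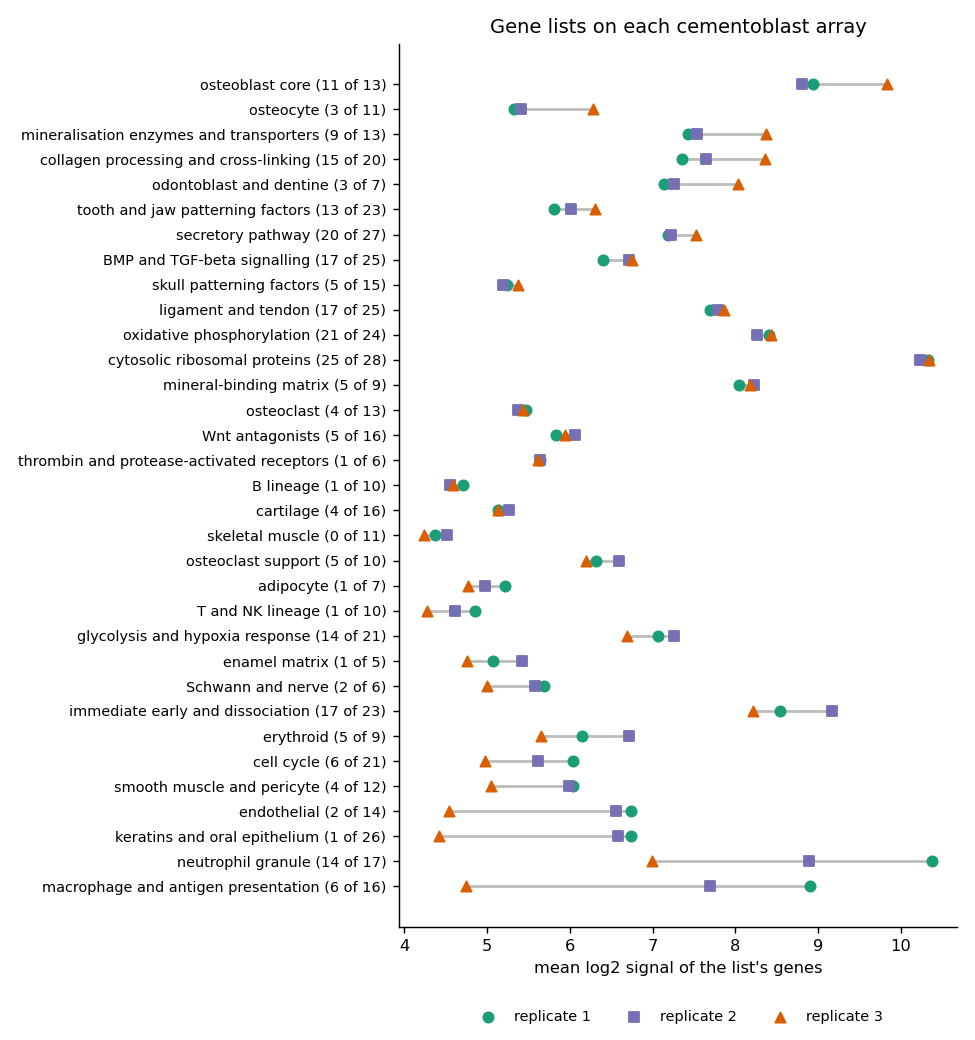
Mean log2 signal of each of 33 gene lists (rows) on cementoblast replicates 1, 2 and 3 (symbols), with the number of measured genes detected on all 3 arrays in brackets. Rows run from lists highest on replicate 3 relative to the other arrays (osteoblast core, 8.94, 8.80 and 9.83) to lists lowest there (macrophage and antigen presentation, 8.90, 7.70 and 4.74), and ribosomal and oxidative phosphorylation lists lie together on the 3 arrays.

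Genes used by all cells were widely detected. Of 28 cytosolic ribosomal protein genes, 25 were detected on all 3 arrays (89.3%), and 21 of 24 oxidative phosphorylation genes were (87.5%). Atp5b, a subunit of ATP synthase, had 11.24, 11.27 and 11.20, and Rps12 had 12.93, 12.78 and 12.86. Glycolytic genes included Gapdh, at 10.24, 10.08 and 9.85, and Hk2, a hexokinase, whose range was the widest of its list, at 8.88, 10.57 and 6.55. Of 21 cell cycle genes, 6 were detected on all 3 arrays (28.6%, beside 33.7% of all genes) and 14 without replicate 3 (beside 38.2% of all genes), and Top2a, a topoisomerase of dividing cells, had 7.29, 5.98 and 4.65. Ccnd1, which encodes cyclin D1, was the brightest, at 8.62, 9.26 and 9.03.

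Early-response genes were among the strongest signals of all, and 9 of the 23 listed were in the highest 100 of all 16593 genes. Egr1, a zinc-finger factor induced within minutes of a stimulus, had 12.86, 13.87 and 12.30 (mean ± SD 13.01 ± 0.79, n = 3), and Fos, a subunit of the factor AP-1, had 12.46, 13.04 and 12.34 (12.61 ± 0.37, n = 3). Fosb had 11.45, 12.51 and 10.38, and the heat-shock gene Hspa1a had 9.88, 10.86 and 7.85. All 19 of the genes detected on any array were higher on replicate 2 than on replicate 1, beside 50.9% of all such genes, and the mean of the list was 8.54, 9.17 and 8.21. Replicate 2 had the highest mean under every scaling tried. Every pool was digested for the same 1 h, and the part of tissue handling in these signals was not tested. Egr3, Nr4a1, Btg2 and Ier5 were below detection.

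The spread between replicates was moderate for most genes and wide for a few. Among the 5595 genes detected on all 3 arrays, the median SD was 0.34 on the log2 scale, with a lowest decile of 0.12 and a highest of 0.81. The 3 arrays lay within 1 of each other in 4178 of them (74.7%) and more than 2 apart in 299 (5.34%). Bglap2, Bglap and Ibsp, each with an SD over 1, were therefore above the highest decile.

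Genes were then counted that stood at least 2 (4-fold) above or below both other arrays. Replicate 3 had 50 such genes higher (0.301% of all genes) and 195 lower (1.18%), replicate 1 had 17 higher (0.102%) and replicate 2 had 10 higher (0.0603%), while neither had a gene lower (0% for replicate 1 and 0% for replicate 2). The counts depended on the scaling, and the genes lower on replicate 3 numbered from 27 to 82 under 4 other scalings. The genes higher on replicate 3 were led by Megf10, a scavenger receptor with EGF repeats, at 4.19, 4.32 and 9.30, and Bmp8a, a BMP ligand, at 4.67, 5.72 and 10.40. Bmp3, Wnt5a, Wnt5b, Ank, Ifitm5 and Sema5a were among the 10 widest. Chosen after their values were seen, the ligand genes Wnt7b, Wnt10a, Fgf9 and Pdgfc were in this set too, with signals on replicate 3 from 6.78 for Fgf9 to 9.02 for Pdgfc. Of the 64 genes of mineralisation and collagen processing, 6 were in this set (Ank, Ifitm5, Ibsp, Lox, Smpd3 and Tmem119) and 3 were in the lower one (Mgp, Fbln1 and Atf4).

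The genes lower on replicate 3 were led by Krt14, Krt13, Ccl4, Igfbp3 and H2-Ab1. Ccl4, a chemokine of activated macrophages, had 10.89, 10.61 and 4.27, and Igfbp3, a carrier of insulin-like growth factors, had 10.71, 10.87 and 5.34. The set held 11 of 26 keratin and oral epithelium genes, 10 of 16 macrophage genes, 9 of 17 neutrophil genes and 8 of 14 endothelial genes, beside 1.18% of all genes. It was not made of cell-type markers alone. Chosen after their values were seen, Eef2, a translation elongation factor, had 7.88, 7.60 and 5.58, and Tpm3, a tropomyosin, had 9.14, 9.17 and 6.13. Eef2 and Tpm3 each had further probes. Only the brightest is given, and whether the others were also lower on replicate 3 is not shown.

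**Figure D5:**
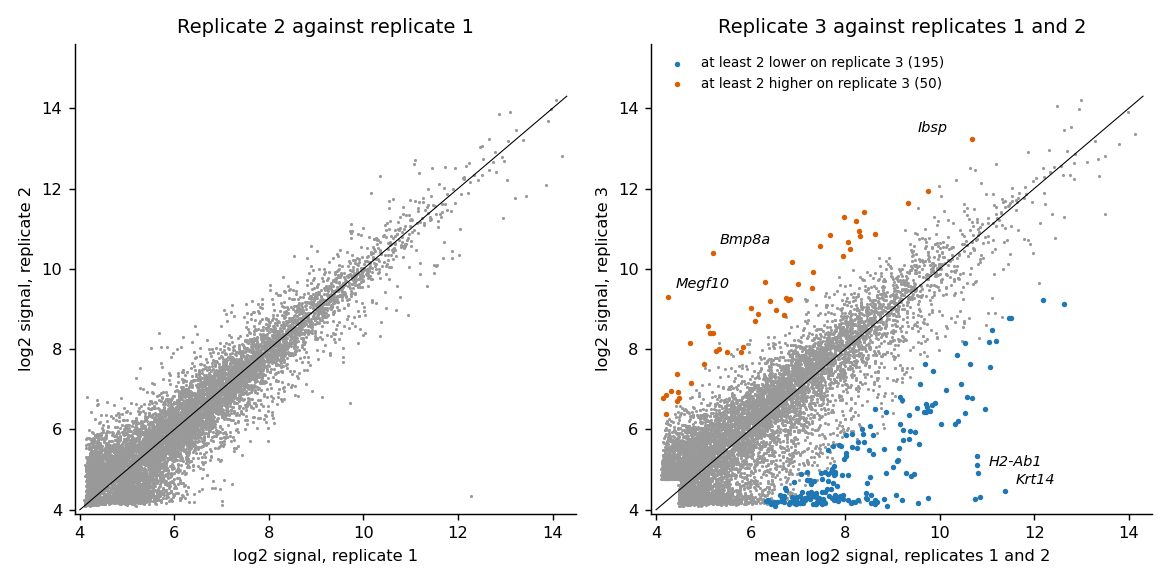
Log2 signal of each gene detected on at least 1 cementoblast array, replicate 2 against replicate 1 (left) and replicate 3 against the mean of replicates 1 and 2 (right), with the line of equality. The left cloud is narrow, and the right one is wider, with 50 genes (orange) at least 2 above and 195 (blue) at least 2 below both other arrays.

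On replicate 1, the gene that stood out was Prl, the pituitary hormone prolactin, at 12.28 on replicate 1 and not detected on replicates 2 and 3. It has 1 probe. Other pituitary hormone genes, looked at after Prl was seen, lay between 4.16 and 4.81 on all 3 arrays (Gh, Pomc, Cga, Tshb and Lhb). Of these, Gh and Pomc were detected on replicate 2 alone, at 4.81 and 4.80, near the edge of detection. Cyp2a5 at 7.00, Cyp2g1 at 6.97 and Ugt2a2 at 7.00, which encode enzymes that act on foreign compounds, were also higher on replicate 1 and not detected on replicates 2 and 3. Ugt2a1, a related gene looked at after these were seen, was below detection. The other genes higher there included Fcnb, a ficolin of myeloid cells, at 9.13, 6.80 and 4.36, and the leukocyte genes Fcgr4, Itgb7 and Fermt3. On replicate 2, the 10 genes were led by Mlf1, a myeloid leukaemia factor, at 5.67, 8.40 and 4.31, and Egr4, an early-response factor, at 4.16, 6.80 and 4.11. Sprr2d, a cornified-envelope protein of epithelium, had 5.51, 8.02 and 4.26, and Fas, a death receptor, had 6.17, 8.29 and 6.13.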

How the data were processed

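Per the file headers, the deposited table of non-normalized values held bead signals as intensity on a linear scale for 25697 probes, with a detection p-value beside each. The authors also deposited normalized intensity values. The submitters' processing notes name lumi. Its version and settings are not given in the sources used. Columns and samples share titles, except for replicate 3: its column carries the number 3 and its title the number 4, and the match rests on the tissue name and the number in its description.

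The deposited intensities of all 6 arrays were background-corrected from the detection p-values, quantile-normalized and taken to log2 with neqc (offset 16, limma 3.58.1, R 4.3.3). The platform annotation gave 23978 probes a single symbol and 1719 none here, which left 16593 genes, 4777 with several probes. The brightest probe by mean stood for a gene, and it mattered: of 2280 genes detected on all 3 arrays with several probes, 44.0% had probes more than 2 apart. The description is of 1 group, so no test was run, and 3 arrays limit the precision of every SD. The labels do not say whether the pools were separate preparations beyond their mice.

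The members and the 33 gene lists were chosen with earlier results of these data known. Named were the 20 genes with the highest mean, the 7 markers, for each list up to 6 detected members with the highest mean, the member of widest range and members below detection, and for each array the 10 genes highest above and the 5 lowest below both others. Other list members, and genes said to be so, were chosen after their values were seen. Of the listed symbols, 73 were not analysed here. On simulated cementoblast arrays of 25697 probes, 84% of 200 genes raised by 3 (log2) were found at least 2 above both other arrays. Of the other expressed genes, 0% were. The spread set between simulated arrays was under 0.34, the median SD of genes detected on all 3 real arrays. The 0% therefore does not measure how often real genes stand apart through spread alone. Alternatives were neqc on the 3 arrays alone, scaling to the 75th percentile, uncorrected signals, the submitters' values, other detection rules and probe choices, and leaving out each array.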

Additional observations from a re-analysis of the deposited data

How the results depend on the processing

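Counts of detected genes rested on the array rule more than on the threshold. Epithelial genes numbered 20 of 31 when detection on at least 2 of the 3 arrays was enough, beside 7129 of 16593 genes. Leaving out each array in turn gave 5914 to 6339 detected genes, 44 to 48 mineralising, 17 to 18 ligament, 2 to 19 epithelial and 31 to 43 marrow genes. The 20 highest genes shared 18 to 19 members with the list when an array was left out, 19 or 20 under other scalings and 14 with the mean over all probes of a gene. Counts of genes apart on 1 array depended on the scaling. With neqc on the 3 arrays alone, 5 were higher on replicate 1, 2 higher on replicate 2 and 82 lower on replicate 3. With the submitters' values the counts were 7, 3 and 71, with no background correction 1, 1 and 27, and with scaling to the 75th percentile 4, 3 and 66. Genes higher on replicate 3 numbered 35 with neqc on the 3 arrays alone and 29 with the submitters' values. They numbered 17 with no background correction and 56 with scaling to the 75th percentile. The cause was not tested. Scaling to the 75th percentile put the median of genes detected on all 3 arrays at 5.99, 6.03 and 6.40 on replicates 1, 2 and 3, against 6.81, 6.84 and 6.87 with neqc, which placed replicate 3 higher relative to the other arrays. Apart from the means of the mineral-binding, ligament, skull, thrombin, osteoclast support, osteoclast, B lineage, smooth muscle, Schwann, ribosomal and oxidative phosphorylation lists, the list means kept their highest and lowest array under every scaling and probe choice. No paired analysis was possible because no groups were compared. Signals near the edge of detection limit what can be said of dim genes, and the order of arrays has no meaning there. The SD over 3 pools carries differences between mice, preparations and arrays together.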

Other observations

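The following genes are outside the lists and were chosen after their values were seen. Igf2, an insulin-like growth factor, had log2 signals of 12.22, 12.65 and 10.76 on replicates 1, 2 and 3, and Igfbp5, a carrier of such factors in bone, had 11.71, 12.01 and 10.71. Gja1, which encodes the gap-junction protein connexin 43 of bone-forming cells, was even, at 11.37, 11.98 and 11.89. Mmp2, a gelatinase, was highest on replicate 3, at 11.61, 12.12 and 12.90. The basement-membrane collagens Col4a1 and Col4a2 went the other way, with 9.36, 9.22 and 4.91 for Col4a1 and 9.03, 9.17 and 5.22 for Col4a2. Among inflammatory genes, Il1b had 10.03, 8.86 and 4.90, Tnf had 8.71, 8.17 and 4.41 and Ccl3 had 9.68, 9.12 and 4.84. Of the 1719 probes with no gene symbol here, 411 were detected on all 3 arrays, and they are in no gene count.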
